A study of Mus musculus with 10 samples.

Results

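Mouse embryonic stem (ES) cells that express the Zscan4 genes were compared with ES cells that express the pluripotency factors Esrrb and Tbx3. The comparison rests on 4 of the 10 RNA-seq libraries of the study: 2 of Zscan4-positive cells and 2 of Esrrb-positive/Tbx3-positive cells, called double-positive here. All cells were of the E14Tg2a.4 line. Double-positive cells came from a line with knock-in fluorescent reporters at both Esrrb and Tbx3, which also gave a fraction positive for Esrrb alone (single-positive) and a fraction negative for both (double-negative). Zscan4-positive cells and their Zscan4-negative counterparts came from a separate line with a piggyBac transgene in which part of the Zscan4c promoter controls the reporter.

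The reporter line and the sorted state therefore differ together between the 2 fractions and cannot be told apart in the direct comparison. The promoter fragment, and not the Zscan4c gene itself, decided which cells counted as positive. The deposited table holds 1 FPKM value (fragments scaled to transcript length and to all mapped fragments) per gene row and fraction, in which the 2 libraries are merged. No value has a replicate error, no difference could be tested, and read depth is unknown.

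Rows were compared where either fraction reached 1 FPKM, which held for 12354 of the table's 32361 rows after 5 Y-linked rows had been left out. The difference was taken on the log2(FPKM + 1) scale, which understates the change of weakly expressed genes. A row was called at a difference of 2-fold or more. It was kept as a difference between the states when it also differed 1.5-fold or more in the same direction between Zscan4-positive and Zscan4-negative cells of the Zscan4 line. Both differences use the Zscan4-positive column, so the kept rows are what the rule selects and the number kept is not a replication. In all, 452 rows were kept.

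ES cell cultures contain a small, changing population that transcribes genes otherwise used by the embryo at the 2-cell stage, when its own genome is first switched on. The Zscan4 genes encode zinc finger proteins with a SCAN domain and mark this population, and ZSCAN4 is known for its part in telomere maintenance in ES cells. Esrrb is a nuclear receptor and Tbx3 a T-box factor of the network that holds ES cells in the naive state, the counterpart of the preimplantation epiblast.

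The sorted genes were examined first. Zscan4c (mm10 chr7:11005745-11010547) was listed at 120 FPKM in Zscan4-positive, 0.671 in double-positive, 0.255 in Zscan4-negative, 0.0140 in single-positive and 0.339 in double-negative cells. The Zscan4-positive level stood far above the other 4, a difference of 6.18 (log2) from double-positive cells. Esrrb was listed at 233 FPKM in Zscan4-positive, 243 in double-positive, 203 in Zscan4-negative, 177 in single-positive and 43.3 in double-negative cells. Esrrb thus lay at nearly the same level in the 2 fractions compared, with a difference of -0.06.

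Tbx3 (chr5:119670862-119684724) was higher in Zscan4-positive cells than in the cells sorted for Tbx3. Its level was 35.3 FPKM in Zscan4-positive, 12.6 in double-positive, 11.4 in Zscan4-negative, 1.75 in single-positive and 0.638 in double-negative cells. The difference was 1.42 from double-positive and 1.55 from Zscan4-negative cells, so Tbx3 is itself one of the rows kept as higher. Tbx3 marks the double-positive fraction against the other fractions of its own reporter line, but it does not set double-positive apart from Zscan4-positive cells.

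The promoters of the Zscan4 genes are shown because the sort relied on a fragment of one of them and because the genes were high together. Each sequence holds the 250 bases before the gene start, from RefSeq on GRCm38.p6. Capitals mark TGATTNAAT, the core of the motif known for the 2-cell activator DUX, and TATAAA, the TATA box. Both strands were searched, and the motifs do not overlap in these windows.
Zscan4c, chr7:11005495-11005744, plus strand: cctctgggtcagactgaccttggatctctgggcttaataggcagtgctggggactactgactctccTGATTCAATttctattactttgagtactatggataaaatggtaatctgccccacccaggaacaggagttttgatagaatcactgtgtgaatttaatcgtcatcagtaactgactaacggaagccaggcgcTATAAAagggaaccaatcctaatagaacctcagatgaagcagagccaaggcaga
Zscan4f, chr7:11397665-11397914, plus strand: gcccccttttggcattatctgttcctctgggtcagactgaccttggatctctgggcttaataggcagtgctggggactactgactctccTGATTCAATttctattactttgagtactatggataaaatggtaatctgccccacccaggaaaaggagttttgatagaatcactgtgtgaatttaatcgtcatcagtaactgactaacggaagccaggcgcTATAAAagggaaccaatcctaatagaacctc
Zscan4d, chr7:11166149-11166398, minus strand: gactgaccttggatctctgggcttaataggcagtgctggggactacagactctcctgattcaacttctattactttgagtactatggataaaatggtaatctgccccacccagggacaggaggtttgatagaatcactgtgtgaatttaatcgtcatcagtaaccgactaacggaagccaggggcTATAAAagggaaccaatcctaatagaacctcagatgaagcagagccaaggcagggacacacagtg
Usp17lb, chr7:104842584-104842833, minus strand: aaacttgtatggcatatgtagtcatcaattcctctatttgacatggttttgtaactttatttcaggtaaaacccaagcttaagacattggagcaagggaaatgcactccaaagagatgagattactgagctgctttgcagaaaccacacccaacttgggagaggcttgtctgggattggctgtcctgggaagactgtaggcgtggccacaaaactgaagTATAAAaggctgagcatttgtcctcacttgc

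The Zscan4c and Zscan4f windows matched at 226 of 227 aligned bases (99.6%). The Zscan4c and Zscan4d windows matched at 232 of 239 (97.1%). The promoters of the other members of the cluster were not compared. TGATTNAAT began 184 bases before the start of Zscan4c and 161 before that of Zscan4f. TATAAA began 54, 31, 65 and 31 bases before the starts of Zscan4c, Zscan4f, Zscan4d and Usp17lb. Of 32851 RefSeq promoters cut to the same window, 0.658% hold TGATTNAAT and 12.4% hold TATAAA. A match describes letters and is not a binding site. Only 58.5% of the 414 symbols kept as higher have a promoter in the table, short of the 80% needed, so no share over the kept genes is given.

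Most genes were at like levels in the 2 fractions: 87.6% of the rows compared lay within 1.5-fold, and the median difference over all rows was -0.03. Higher in Zscan4-positive cells were 451 rows (3.65% of those compared), and lower were 94 (0.761%). Of these, 417 rows were kept as higher (3.38%) and 35 as lower (0.283%). The rule kept 92.5% of the higher rows and 37.2% of the lower ones. Across the 12354 rows the Pearson r of the log2 values was 0.954 between Zscan4-positive and double-positive, 0.955 between Zscan4-positive and Zscan4-negative, and 0.984 between double-positive and Zscan4-negative cells. These correlations run over genes, which are not independent replicates.

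**Figure D1:**
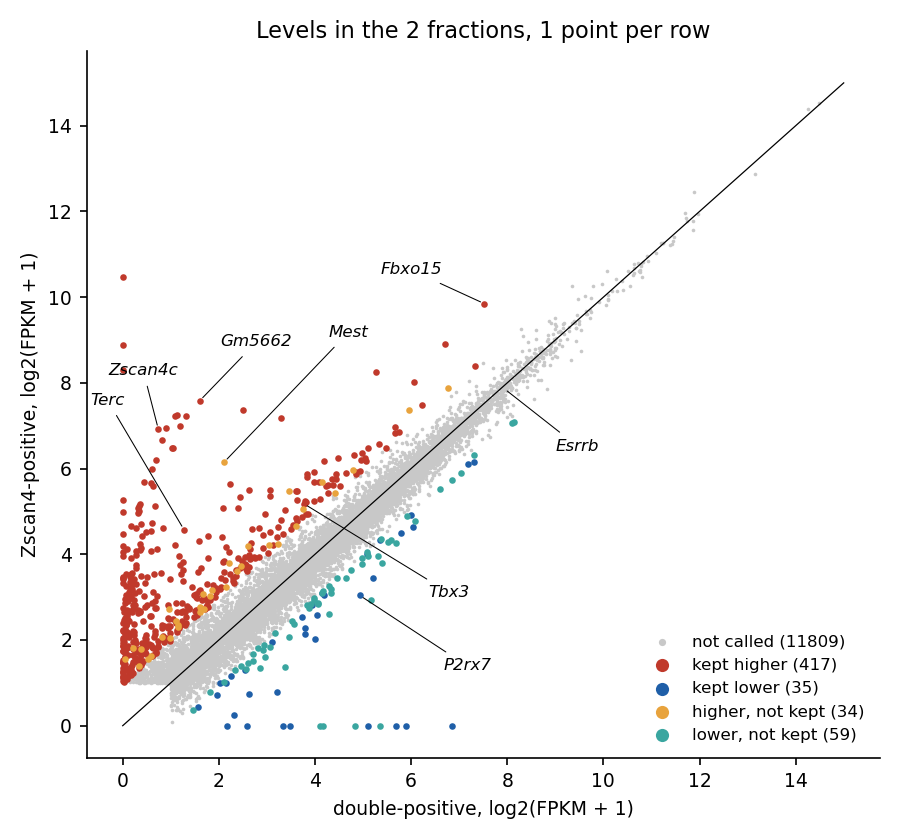
Level of each of the 12354 rows in double-positive cells (horizontal axis) and Zscan4-positive cells (vertical axis), both as log2(FPKM + 1), with the line of equal levels. Most of the coloured points are the 417 rows kept as higher (red), many of them near 0 in double-positive cells, and Esrrb lies near the line while Tbx3 lies above it.

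The kept higher rows were mostly genes with little or no transcript in double-positive cells. Of the 417, 240 were under 1 FPKM there, 100 were from 1 to under 5, and 77 were at 5 or more. The 240 entered the comparison only through the Zscan4-positive column and had to be higher there. The median difference of the 417 rows was 1.55, with 153 rows at 4-fold or more, 70 at 8-fold, 37 at 16-fold and 18 at 32-fold. Of the rows, 356 matched a protein-coding or long noncoding gene, 40 matched no symbol and 8 were microRNA precursors. The red point with the highest Zscan4-positive level is Mir8109, listed at 1427 FPKM against 0, and such values of very short RNAs were not read as levels.

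The 15 largest kept increases above 5 FPKM belonged in the main to gene families with several near-identical copies. Beside Zscan4c they held Zscan4d, at 123 FPKM in Zscan4-positive, 0.874 in double-positive and 0.0588 in Zscan4-negative cells. Gm5662, one of a family of genes on chromosome 12 that encode proteins like the translation initiation factor eIF1A, was at 191, 2.04 and 0.216 FPKM. Its difference of 5.99 came close to that of Zscan4c, and at 191 FPKM its listed level was above that of Zscan4c. The relatives Gm8300, Gm2016 and Gm2022 were at 126, 72.8 and 88.7 FPKM in Zscan4-positive cells, and at 1.29, 0.615 and 1.06 in double-positive cells.

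Reads from near-identical copies can be shared out between them by the authors' counting, so levels of single copies are uncertain. Usp17lb, which encodes a ubiquitin protease on chromosome 7, was at 50.6 FPKM in Zscan4-positive and 0.353 in double-positive cells, and its neighbour Usp17le differed by 5.08. The second row of Zscan4f (chr7:11478034-11518688) was at 62.2 and 0.530 FPKM. Tdpoz4, of the speckle-type BTB family, was at 33.7 FPKM in Zscan4-positive and 0.267 in double-positive cells and was listed at 0 in Zscan4-negative cells. Gm12794 and Gm8994 were at 88.3 and 163 FPKM in Zscan4-positive cells, against 1.03 and 4.68 in double-positive cells, and Gm20767 was at 149 FPKM with a difference of 5.91.

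Single-copy genes were among them too. Tmem92, a predicted membrane protein, was at 47.5 FPKM in Zscan4-positive, 0.558 in double-positive and 0.0690 in Zscan4-negative cells. Arg2, the mitochondrial arginase, was at 35.3, 0.279 and 0.0236 FPKM. In both, double-positive and Zscan4-negative cells were together under 1 FPKM and well apart from Zscan4-positive cells, with differences of 4.96 and 4.83 from double-positive cells.

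**Figure D2:**
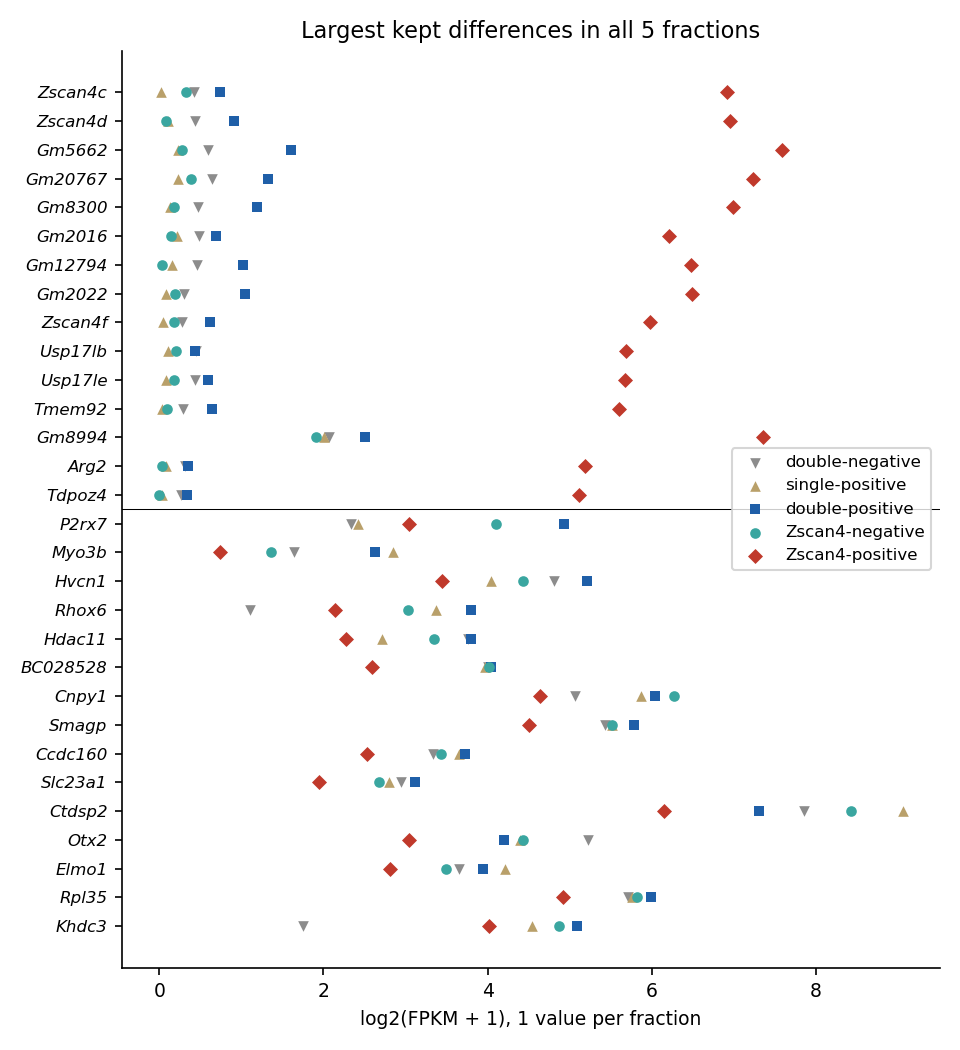
Levels in all 5 fractions, as log2(FPKM + 1), of the 15 largest kept increases (above the line) and the 15 largest kept decreases (below it), 1 point per fraction. In the upper 15 the Zscan4-positive point stands apart from the other 4, whereas in the lower 15 it lies 1 to 2 units from the double-positive point and, for P2rx7, Rhox6 and Khdc3, above that of double-negative cells.

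Lists of genes known from the 2-cell-like state were then followed. Of the Zscan4 cluster, 6 of 6 rows compared were kept as higher, with a median difference of 5.71 against -0.03 over all rows. The cluster lies within chr7:10794241-11518688, and Zscan4a was its highest member at 151 FPKM against 1.19 in double-positive cells. Of the multicopy genes of this state, 22 of 22 rows were kept as higher, with a median difference of 4.18. Tcstv3, a 2-cell transcript of chromosome 13, was at 14.9 FPKM in Zscan4-positive cells, 0.217 in double-positive cells and 0 in Zscan4-negative cells. These genes are described in the literature as members of this state, and most passed the 1 FPKM limit only in Zscan4-positive cells, so the counts follow in large part from the sort and the limit.

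Regulators and other single genes of the state gave 15 of 16 rows higher, all 15 kept, with a median of 2.64. Of the 16 rows, 11 were under 1 FPKM in double-positive cells and so had to be higher to be compared. Dux, the double homeobox factor that activates many of the others, was at 7.99 FPKM in Zscan4-positive, 0.127 in double-positive and 0.0338 in Zscan4-negative cells. Zfp352, a zinc finger gene of the 2-cell embryo, was at 14.1, 0.134 and 0 FPKM. Both were near 0 in the 2 reference fractions. Dppa2 and Dppa4, partner proteins that act upstream of Dux, differed from each other. Dppa2 was at 124 FPKM in Zscan4-positive, 49.7 in double-positive and 48.6 in Zscan4-negative cells. Dppa4 was at 84.3, 112 and 111 FPKM, the 1 row of this list not called. Nelfa, a subunit of the negative elongation factor and a marker of this state, was at 257, 66.2 and 60.4 FPKM.

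Known repressors of the 2-cell-like state were examined next. Of 25 rows compared, 0 passed 2-fold in either direction and the median difference was -0.05, near the all-row shares of 3.65% higher and 0.761% lower and the all-row median of -0.03. Chaf1a, a subunit of the chromatin assembly factor CAF-1, was at 37.3 FPKM in Zscan4-positive and 36.2 in double-positive cells. Kdm1a, a histone demethylase, was at 117 and 128 FPKM. Trim28, the corepressor of zinc finger repressors, was at 1222 and 886 FPKM, a difference of 0.46 with the higher level in Zscan4-positive cells. Chaf1b lay on the other side, at 53.7 and 75.1 FPKM and a difference of -0.48.

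Of telomere maintenance genes, 0 of 20 rows passed 2-fold and the median difference was -0.05, which is also near the values over all rows. Tert, the telomerase protein, was at 4.42 FPKM in Zscan4-positive and 5.03 in double-positive cells. Terc, the telomerase RNA, is outside that list and was picked out after its values were seen. It was at 22.8 FPKM in Zscan4-positive, 1.42 in double-positive, 1.49 in Zscan4-negative, 1.17 in single-positive and 1.90 in double-negative cells. Only the Zscan4-positive level stood apart. Terc is a short RNA, for which FPKM is less reliable than for long transcripts.

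**Figure D3:**
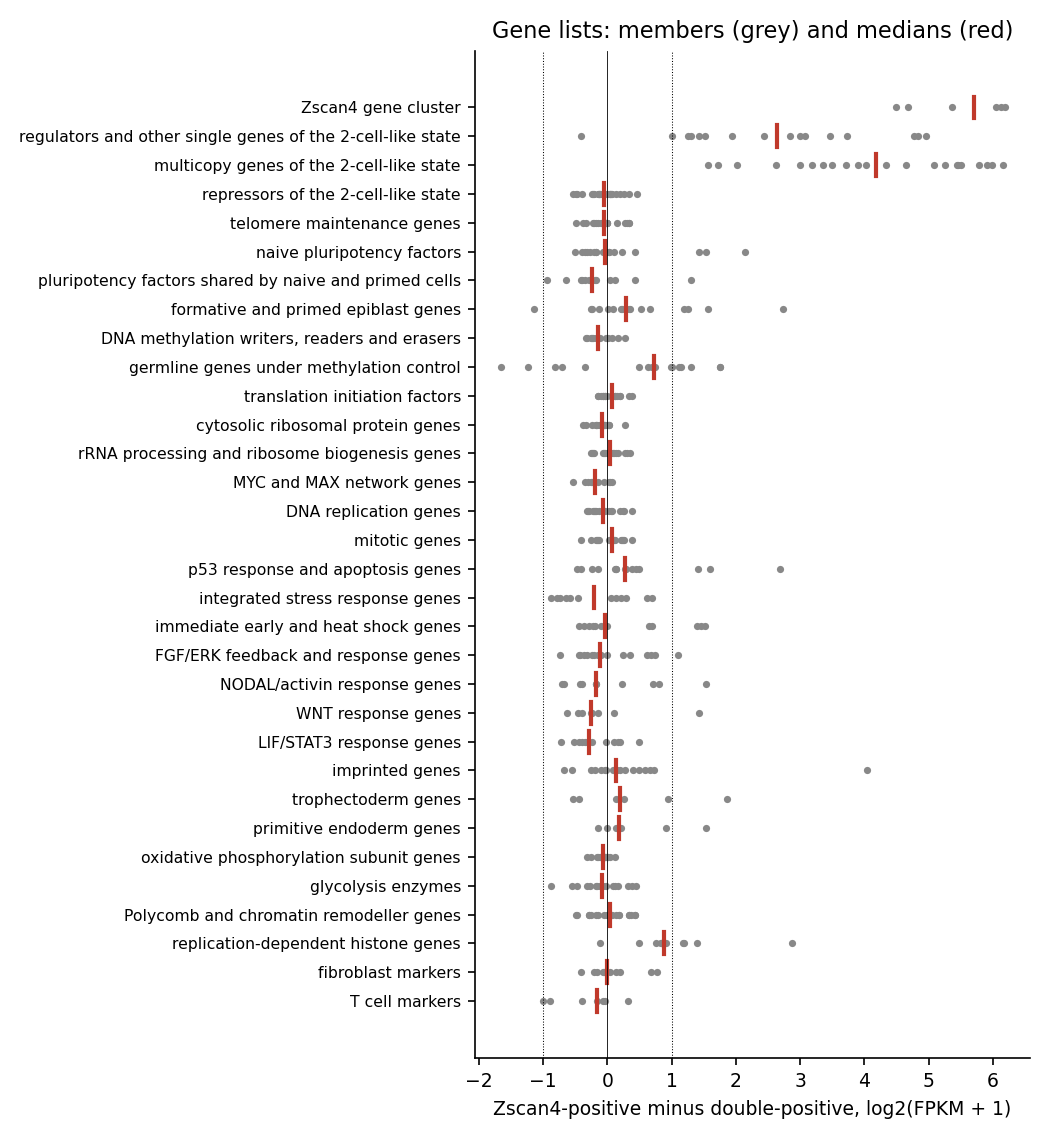
Difference between Zscan4-positive and double-positive cells, log2(FPKM + 1), for the members of 32 gene lists (grey points, 1 per row compared) with the list's median (red bar) and dotted lines at 2-fold. The 3 lists of the 2-cell-like state have medians of 5.71, 2.64 and 4.18, and the medians of the other 29 lie between the dotted lines.

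Traces of these transcripts were present in double-positive cells. For each of the 28 rows of the Zscan4 and multicopy lists, the level was taken as a percentage of that in Zscan4-positive cells. The median was 1.11% in double-positive cells (from 0.521% to 6.79%), 0.107% in Zscan4-negative cells, 0.383% in double-negative and 0.118% in single-positive ones. Double-positive cells were above Zscan4-negative cells in 28 of 28 rows and above all 3 other fractions in 25, against 52.8% and 33.3% of all rows compared. Many of these rows are copies within a family and can share reads, and most were under 1 FPKM in double-positive cells, so they are not independent counts. In Zscan4-negative cells, from which reporter-positive cells had been sorted away, 9 rows were listed at 0. Because bulk RNA pools many cells, fewer cells of a type and less RNA per cell cannot be told apart.

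The kept higher rows were clustered along the genome in places. With gaps of up to 500 kb, 7 runs of at least 4 rows kept as higher held 51 rows. One on chromosome 12 (chr12:87514316-88321762) held Gm8300, Gm2016, Gm2022 and Gm5662, with 9 of 9 rows compared kept. A run of PRAME-family genes on chromosome 4 (chr4:143394441-144364419) had 7 of 8 rows kept, with a median of 7.71 FPKM in Zscan4-positive and 0.127 in double-positive cells. The run with Tcstv3 and Gm20767 (chr13:119827961-120318261) had 6 of 7, and the one with Tdpoz4 and Tdpoz3 (chr3:93014205-94436651) 7 of 10. The Zscan4 cluster was the run on chromosome 7. Of all rows compared, 3.38% were kept as higher. In each of the runs named so far, the kept rows had a median of 0.103 to 0.615 FPKM in double-positive cells. Most of these rows passed the 1 FPKM limit only in Zscan4-positive cells and had to be higher there. The counts therefore follow in large part from the limit and from how runs were picked.

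The other 2 runs were histone genes of chromosome 13, with 5 of 14 rows kept within chr13:21716412-22043658 and 11 of 19 within chr13:23535418-23762386. Over the whole table, 17 of 40 histone rows were kept as higher and 0 were lower, against 3.38% and 0.761% of all rows. Most of the 17 reached 1 FPKM in double-positive cells. Some did not, among them Hist1h3a at 0.378 and Hist1h2bj at 0.969 FPKM, and so had to be higher to be compared. Hist1h4i, an H4 gene, was at 44.0 FPKM in Zscan4-positive, 5.14 in double-positive and 6.66 in Zscan4-negative cells. Hist1h1c, a linker histone, was at 9.98, 3.89 and 3.29 FPKM. Of the 10 rows on the list of replication-dependent histones 4 were higher, with a median of 0.88. Most messages of these genes have no poly(A) tail, and the library labels do not say how RNA was selected. DNA replication genes and mitotic genes showed no call, 0 of 18 rows and 0 of 16 rows, with medians of -0.07 and 0.08.

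Of the 77 kept higher rows at 5 FPKM or more in double-positive cells, 4 genes beside Nelfa and Dppa2 were picked out after their values were seen. Fbxo15, an F-box gene known as an ES cell marker, was at 921 FPKM in Zscan4-positive, 183 in double-positive and 162 in Zscan4-negative cells. Mreg, which encodes melanoregulin, was at 478, 104 and 85.2 FPKM. Avpi1 was at 177, 73.5 and 61 FPKM, and Marveld1 was at 145, 8.80 and 12.1 FPKM. In each of these genes the 2 reference fractions lay close together and Zscan4-positive cells lay above both.

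Of 18 naive pluripotency factors, 15 (83.3%) lay within 1.5-fold between Zscan4-positive and double-positive cells, near the 87.6% of all rows. The other 3 were higher: Tbx3, Pramel6 and Pramel7. Pramel6 and Pramel7 were under 1 FPKM in double-positive cells, at 0.318 and 0.176, and so had to be higher to be compared. Pramel7, a PRAME-family gene of the inner cell mass, was at 4.18 FPKM in Zscan4-positive, 0.176 in double-positive and 0.0829 in Zscan4-negative cells. Klf2, a Kruppel-like factor, was at 391 FPKM in Zscan4-positive, 395 in double-positive and 252 in Zscan4-negative cells. Nanog, a homeodomain factor of the network, was at 522, 388 and 257 FPKM. Zfp42, also called Rex1, was at 522, 601 and 405 FPKM. The median difference of the 18 rows was -0.04 from double-positive and 0.35 from Zscan4-negative cells.

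Zscan4-negative cells were the lowest of the 3 fractions in 16 of the 18 naive rows, against 31.8% of all rows compared. For 16 formative and primed epiblast genes they were the highest in 11, against 30.9% of all rows. The naive list holds Esrrb and Tbx3, for which double-positive cells were sorted, and other members of their network. Zscan4-negative cells were not sorted for either gene and came from the other reporter line. Both counts therefore follow in part from the sort, and sort and line cannot be told apart in them. Tcf15, a factor of cells leaving the naive state, was at 95.7 FPKM in Zscan4-negative, 46.1 in Zscan4-positive and 39.2 in double-positive cells. Dnmt3a, a de novo DNA methyltransferase, was at 36.4, 16 and 15.9 FPKM. In both genes Zscan4-positive and double-positive cells lay together below Zscan4-negative cells. The median of the formative list was 0.28 between Zscan4-positive and double-positive cells and 0.98 between Zscan4-negative and double-positive cells. As a list the formative genes were less alike in Zscan4-positive and double-positive cells than all rows. Only 62.5% of the 16 rows lay within 1.5-fold, against 87.6% of all rows. Of the 16 rows 4 were higher and 1 was lower, against 3.65% and 0.761% of all rows.

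**Figure D4:**
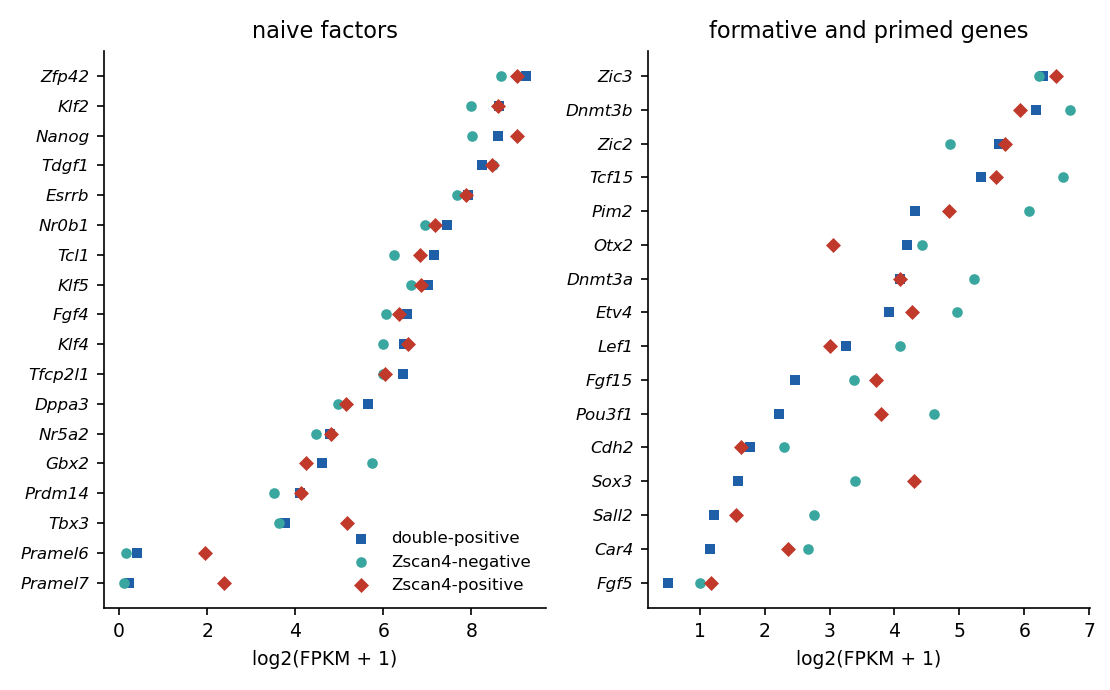
Levels of 18 naive factors (left) and 16 formative and primed epiblast genes (right) in the 3 fractions the rule uses, as log2(FPKM + 1), 1 point per fraction. Zscan4-negative cells are lowest in 16 of the 18 naive rows and highest in 11 of the 16 formative rows, while Tbx3, Pramel6, Pramel7 and Sox3 are highest in Zscan4-positive cells.

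Single formative genes went their own way. Sox3, a factor of the early neural plate and epiblast, was at 18.8 FPKM in Zscan4-positive, 1.99 in double-positive and 9.51 in Zscan4-negative cells and was kept as higher. Otx2, which drives exit from the naive state, was at 7.27, 17.3 and 20.5 FPKM and was kept as lower. Pou3f1, a POU-domain factor, was at 12.8, 3.66 and 23.5 FPKM. It was higher in Zscan4-positive than in double-positive cells but lower than in Zscan4-negative cells, and was not kept. Of the core factors shared by naive and primed cells, 1 of 12 rows, Dppa2, was called, and Pou5f1 was at 2437 FPKM in Zscan4-positive and 2739 in double-positive cells.

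Germline genes under methylation control were split. Of 16 rows 6 were kept as higher and 1 as lower, against 3.38% and 0.283% of all rows, and the median difference was 0.72 against -0.03. Dazl, an RNA-binding protein of germ cells, was at 13.2 FPKM in Zscan4-positive, 3.23 in double-positive and 4.07 in Zscan4-negative cells. Tex19.1, which restrains retrotransposons, was at 71.4, 32.4 and 23.7 FPKM. Rhox6 and Rhox9, homeobox genes of the X chromosome, lay the other way. Rhox6 was at 3.40, 12.9 and 7.16 FPKM and was kept as lower. Rhox9 was at 6.12, 15.8 and 9.34 FPKM and was not kept.

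Of 15 p53 response and apoptosis genes 3 were kept as higher, against 3.38% of all rows. Pmaip1, which encodes the apoptosis inducer NOXA, was at 32.9 FPKM in Zscan4-positive, 4.29 in double-positive and 9 in Zscan4-negative cells. Plk2 was at 36.1, 13.0 and 15.4 FPKM and Btg2 at 18.3, 5.37 and 9.24. Cdkn1a, the best-known p53 target, was at 19.2 FPKM in Zscan4-positive and 22.9 in double-positive cells, and the list's median was 0.28. Of 13 rows of immediate early and heat shock genes 3 were higher, against 3.65% of all rows, and the list's median was -0.03, as over all rows. Of the 3, the heat shock genes Hspa1b and Hspa1a were kept and Jun was not. Hspa1b and Hspa1a were at 0.960 and 0.257 FPKM in double-positive cells and so had to be higher to be compared.

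Rows kept as lower were fewer and differed less. Their median difference was -1.40, and 10 of the 35 passed 4-fold. Of the 35, 21 matched a coding or long noncoding gene, 5 were small nucleolar RNAs, 1 was a microRNA precursor and 8 matched no symbol. The 2 largest of the coding genes were equal at -1.89. P2rx7, an ATP-gated cation channel, was at 7.23 FPKM in Zscan4-positive, 29.5 in double-positive, 16.1 in Zscan4-negative, 4.36 in single-positive and 4.06 in double-negative cells. Myo3b, a class III myosin, was at 0.676, 5.20, 1.58, 6.18 and 2.12 FPKM in these fractions. For both, Zscan4-negative cells lay between the 2 fractions compared.

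Some other kept decreases had the 2 reference fractions close together. Cnpy1, a gene of the canopy family, was at 23.8 FPKM in Zscan4-positive, 64.5 in double-positive and 76.0 in Zscan4-negative cells. BC028528 was at 5.02, 15.4 and 15.2 FPKM. Smagp, a small transmembrane glycoprotein, was at 21.6, 54.0 and 44.7 FPKM. In these 3 genes Zscan4-positive cells were the lowest of all 5 fractions. For Ctdsp2, a small C-terminal domain phosphatase, the 2 reference fractions were apart, by 1.12 with the higher level in Zscan4-negative cells. Ctdsp2 was at 69.8 FPKM in Zscan4-positive, 157 in double-positive, 343 in Zscan4-negative, 530 in single-positive and 231 in double-negative cells.

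The remaining named decreases ran from -1.77 to -1.07. Hvcn1, a voltage-gated proton channel, was at 9.89 FPKM in Zscan4-positive, 36.0 in double-positive and 20.5 in Zscan4-negative cells. Hdac11, a histone deacetylase, was at 3.84, 12.9 and 9.19 FPKM. Khdc3, of the maternal complex beneath the egg's cortex, was at 15.2, 33.1 and 28.2 FPKM. Ccdc160, Slc23a1 (an ascorbate transporter), Elmo1 and Rpl35 were the other 4, at 4.78, 2.85, 5.99 and 29.3 FPKM in Zscan4-positive cells and 12.2, 7.66, 14.4 and 62.7 in double-positive cells.

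The condition within the Zscan4 line set aside 34 higher and 59 lower rows. For 16 of the 34 and 29 of the 59, Zscan4-negative cells lay at least 2-fold on the same side of double-positive cells. Mest, an imprinted gene, had the largest difference among the coding and long noncoding genes set aside. It was at 70.1 FPKM in Zscan4-positive and 75.3 in Zscan4-negative cells, but at 3.32, 3.01 and 4.22 in the double-positive, single-positive and double-negative fractions. The levels thus went with the reporter line, with a difference of 4.04 in the direct comparison and -0.10 within the Zscan4 line. Of 18 imprinted rows Mest was the 1 called.

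Rnf19a, a ubiquitin ligase, was at 6.64 FPKM in Zscan4-positive and 6.20 in Zscan4-negative cells, against 34.9 in double-positive, 33.2 in single-positive and 58.4 in double-negative cells. Its 2 levels in the Zscan4 line were both below the 3 of the other line. Nckipsd was at 43.6 and 55.1 FPKM in Zscan4-positive and Zscan4-negative cells and at 9.99 in double-positive cells, but single-positive and double-negative cells had 37.2 and 28.8. Nckipsd was therefore low in double-positive cells alone. Nfkbiz and Lmo4 were higher and not kept, at 5.59 and 17.3 FPKM against 0.952 and 5.05 in double-positive cells. Pmel, Calml4, Nupr1 and Krt19 were lower and not kept, at 12.8, 5.07, 18.3 and 1.54 FPKM against 40.9, 18.7, 50.4 and 6.24 in double-positive cells.

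**Figure D5:**
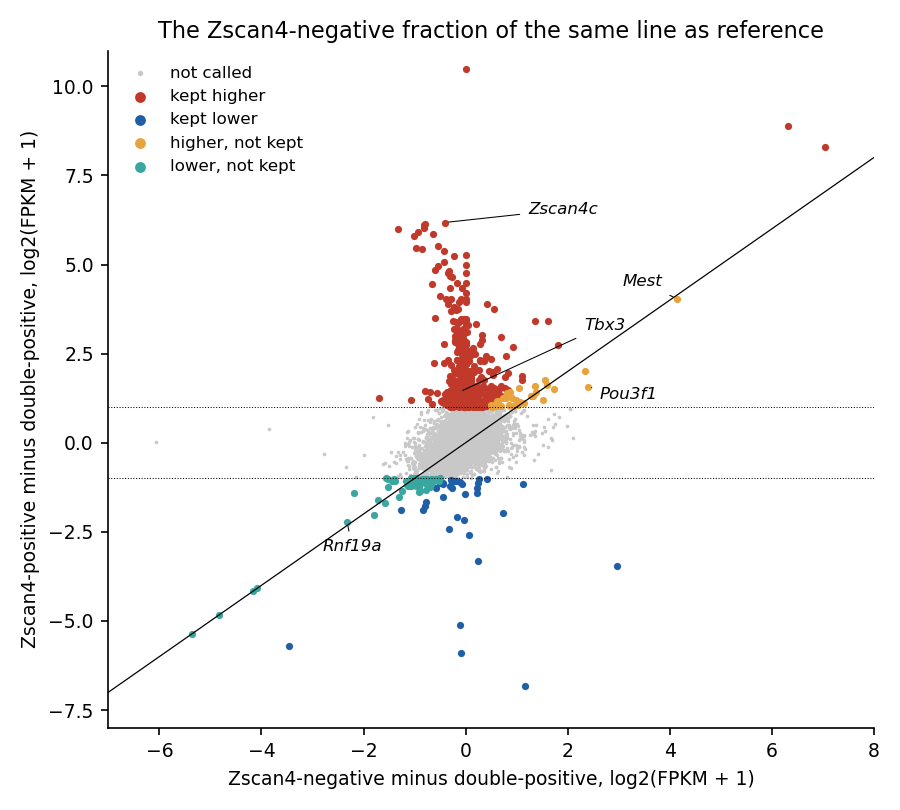
For each row, the difference of Zscan4-negative from double-positive cells (horizontal axis) and of Zscan4-positive from double-positive cells (vertical axis), both in log2(FPKM + 1) and both taken from the same double-positive value. Rows on the diagonal have equal levels in the 2 fractions of the Zscan4 line, as Mest and Rnf19a nearly have, and Zscan4c lies far above it, while the dotted lines mark 2-fold.

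Rows near the limits show how narrow the choice can be. Znhit3, the kept higher row nearest the 2-fold limit, was at 57.2 and 28.1 FPKM in Zscan4-positive and double-positive cells. Hspa2, at 5.05 and 2.03 FPKM, fell just short. Jun missed the condition within the Zscan4 line with a difference of 0.57, and Thbs1 met it with 0.60. Among lower rows Enpp3, at 19.2 and 39.8 FPKM, was just inside the 2-fold limit, and Fut9, at 3.88 and 8.72, just outside. Myo3b met the condition with -0.62 and Cldn4 missed it with -0.55.

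The kept rows were also followed in 2 columns that the rule did not use, single-positive and double-negative cells. Over all rows compared, 1.89% were 2-fold higher and 1.14% 2-fold lower in the single-positive column. Of the 417 kept higher rows 5 (1.20%) were higher and 12 (2.88%) lower, but only 214 of them reached 1 FPKM in either column, below which a row cannot differ 2-fold on this scale. Over those 214 rows the shares were 2.34% and 5.61%, against 1.98% and 1.19% of the 11836 rows compared that reached the same level. Of the 35 kept lower rows 5 (14.3%) were higher and 3 (8.57%) lower. Khdc3 was one of the 5, at 22.2 FPKM against 2.38 in the double-negative column, and Rhox6 another, at 9.34 and 1.15. Among the kept higher rows Sox3 was lower in single-positive cells, at 2.50 FPKM against 14.8.

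Markers of other cells were checked in the same columns. Fibroblast markers, with 11 rows compared, summed to 334 FPKM in Zscan4-positive, 370 in double-positive and 312 in Zscan4-negative cells, and 0 of 11 were called. Fn1 and Vim made up most of these sums, at 173 and 127 FPKM in Zscan4-positive cells, and Lum was listed at 0 there. The 2 fractions low in Tbx3 had far higher sums, 2670 FPKM in the double-negative and 2013 in the single-positive one. Thbs1 and Col4a1 are outside this list and were kept as higher. Both were also highest in double-negative cells, at 28.4 and 19.3 FPKM, against 2.54 and 3.60 in Zscan4-positive cells. In double-positive cells they were at 0.550 and 0.583 FPKM and so had to be higher to be compared. Whether other kept rows share this order was not tested. T cell markers, with 7 rows compared, summed to 23.2, 36.6 and 27.6 FPKM in Zscan4-positive, double-positive and Zscan4-negative cells and to 515 in the double-negative and 373 in the single-positive fraction. Lck was the 1 marker called, at 9.93 FPKM in Zscan4-positive and 20.9 in double-positive cells. The part of these transcripts in the difference between the single-positive and double-negative columns was not tested.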

How the data were processed

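RNA of 5 sorted fractions was sequenced in 10 libraries, 2 per fraction. Per the labels' protocols, the NEBNext Ultra RNA kit served for library construction. Per the submitters' processing notes, the authors used Cuffdiff 2.2.1, Cufflinks, TopHat2 2.0.14 and bcl2fastq 1.8.4 and the build mm10. Not given in the sources used here are the library normalization, how libraries were merged, and the gene annotation. The deposited FPKM values, 1 per row and fraction, were made by the authors. Column totals ran from 507495 to 552117. FPKM values carry no read depth, so no interval or count test was possible.

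From these, log2(FPKM + 1) differences were computed with Python 3.11.15, pandas 2.3.3 and numpy 2.4.6, and drawn with matplotlib 3.10.9. Rows needed 1 FPKM in either column. Of 12354 rows, 11892 matched a symbol in RefSeq and 11769 were coding or long noncoding. The calculation was tested on simulated data. The members and the 32 gene lists (525 entries) were chosen with earlier results of these data known.

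Named genes were Zscan4c, Tbx3, Esrrb, the 15 largest kept differences each way among coding or long noncoding genes with 5 FPKM or more in the higher column, the 5 largest not kept each way, and up to 4 called members per list. Others, such as Klf2, Nanog, Tert, Trim28 and Terc, were picked after their values were seen. Coordinates are the deposited table's, counted from 1. Alternatives covered the pseudocount, the FPKM minimum, the fold limits, column scaling, summed rows, symbol kind and Y-linked rows.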

Additional observations from a re-analysis of the deposited data

How the results depend on the processing

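The direct comparison gave 451 higher and 94 lower rows, with 417 and 35 kept. A pseudocount of 0.1 gave 744 higher and 214 lower rows, with 646 and 94 kept, and one of 0.5 kept 54 lower rows. A minimum of 5 FPKM gave 282 higher rows, 259 of them kept. Coding and long noncoding symbols alone left 21 kept lower rows. A 1.5-fold call gave 984 higher and 544 lower rows (681 and 141 kept), and a 4-fold call gave 155 and 16 (153 and 10 kept). Asking for 2-fold within the Zscan4 line kept 22 lower rows. Of 504 differences of named genes under an alternative, 480 kept direction and side of the limit and 24 kept direction only. Among these 24 were Tbx3 and the 15 named decreases under the 4-fold call. No direction reversed. Calls were 82.8% higher as reported, 83.4% with equal totals and 86.7% with median-ratio scaling. No paired analysis was possible because the table holds 1 merged value per fraction, and leaving out a replicate was not run for the same reason. No difference here can be set against the spread between libraries, and depth is unknown.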

Other observations

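Lists of general cell functions, chosen with earlier results known, had counts near those over all rows, of which 3.65% were higher and 0.761% lower. Oxidative phosphorylation (18 rows), cytosolic ribosomal proteins (20), translation initiation (19), ribosome biogenesis (18), glycolysis (16) and Polycomb and chromatin remodellers (21) had 0 rows past 2-fold, with medians of -0.06, -0.09, 0.07, 0.04, -0.09 and 0.04. Integrated stress response genes also had 0 of 12 past 2-fold, but as a list they were not at like levels. Their median difference from double-positive cells was -0.21 in Zscan4-positive and -0.31 in Zscan4-negative cells, against -0.03 and -0.02 over all rows. They summed to 716 FPKM in Zscan4-positive, 1013 in double-positive and 686 in Zscan4-negative cells. Psat1, of serine synthesis, was at 147, 253 and 174 FPKM. Single rows went both ways, from -0.88 for Trib3 to 0.69 for Atf3 between Zscan4-positive and double-positive cells. DNA methylation genes had 0 of 13 and a median of -0.15.

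Signalling lists had 1 called row each, or none: 1 of 8 rows for WNT, 1 of 10 for NODAL and 1 of 17 for FGF/ERK. Of all rows 3.65% were higher, and these lists are too short for their shares to be set against that. Axin2, a feedback inhibitor of WNT signalling, was at 9.96 FPKM in Zscan4-positive, 3.11 in double-positive and 3.89 in Zscan4-negative cells. Dusp5, a phosphatase of the ERK pathway, was at 11.7, 4.94 and 7.21 FPKM. Id1, a target of BMP signalling, was at 50.6, 16.7 and 35.6 FPKM and was not kept. Its relatives Id2 and Id3 were kept as higher, with Id3 at 73.0, 29.9 and 32.4 FPKM. Of LIF/STAT3 response genes 0 of 12 were called. In the trophectoderm list 1 of 6 rows was called, Id2, at 43.3, 11.2 and 25 FPKM, while Cdx2 stayed under 1 FPKM in these fractions. In the primitive endoderm list Col4a1 was called, at 3.60, 0.583 and 1.72 FPKM, and Gata6 stayed under 1 FPKM.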
